A study of Talinum fruticosum with 36 samples.

Results

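Leaves of Talinum triangulare (labelled Talinum fruticosum) that had been re-watered after a long drought were compared with leaves on day 4 of drought, with midday and midnight pooled. Plants had been well watered for 28 days and then left dry. Day 4 leaves had spent 4 days without water. Re-watered leaves came from plants that had gone 12 days without water and had then been watered for 2 days. Mature leaves were taken 6 h into the light (midday) and 6 h into the dark (midnight), with 3 biological replicates for each stage and time. The comparison therefore holds 12 libraries, 6 for each stage, chosen by their labels from 36 samples in the series, of which 30 are single-end libraries for counting and 6 are paired-end libraries made for an assembly and not analysed here. Both stages carry the label C3, the ordinary mode of photosynthesis, while days 9 and 12 carry the label CAM. The question is which transcripts still set recovered leaves apart from mildly dry leaves in that same mode. Leaves of the same age from plants that were never dry were not among the libraries, so drought history, plant age and sampling day cannot be told apart.

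T. triangulare is a herb that can move from ordinary photosynthesis to crassulacean acid metabolism (CAM) when it dries, and back again when watered. In CAM, phosphoenolpyruvate carboxylase captures carbon dioxide in the dark, the carbon waits in the vacuole as malic acid, and malic enzymes release it behind closed stomata by day. Starch supplies the phosphoenolpyruvate of the night. Drying leaves of many plants also stop cell division and wall extension, make sugars that protect cells, and call on abscisic acid, the hormone that closes stomata. Re-watering ends that state, and proteases, amino acid transport and pigment synthesis are among the processes known to change in leaves that recover.

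Of 13386 loci tested, 1052 were higher and 1096 were lower in re-watered leaves than in day 4 leaves. The median difference over all loci was 0.02 on the log2 scale. A locus here is an Arabidopsis gene to which Talinum reads were assigned, and it was called at an adjusted p under 0.05 in edgeR's quasi-likelihood test of an additive model (time of day plus stage), adjusted over all loci tested. Called loci made up 16% of those tested, 7.86% higher and 8.19% lower, and every count of a gene group given here stands against these shares. Differences are on the log2 scale, re-watered minus day 4, with their standard error, and levels are given in CPM, counts brought to equal library totals, which are not corrected for gene length. The sign was the same at both times for 1045 of the loci called higher and for 1092 of those called lower. Opposite signs cancel in the additive model, so its calls favour loci of equal sign and these counts are no separate support. In 491 of those called higher and in 481 of those called lower the 3 re-watered libraries did not overlap the 3 day 4 libraries at either time of day, as in 584 and 555 of all 13386 loci. Taken alone, midday gave 820 calls (6.13% of loci tested, 519 higher and 301 lower) and midnight gave 3565 (26.6%, 1775 higher and 1790 lower). These counts moved with single libraries: the pooled count was lowest without re-watered midnight replicate 2 (1141) and highest without re-watered midday replicate 1 (2851), and the midday count went from 98 without day 4 midday replicate 3 to 2723 without re-watered midday replicate 1. The loci called lower numbered 551 and those called higher 590 without the first of these libraries, and 1512 and 1339 without re-watered midday replicate 1.

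**Figure D1:**
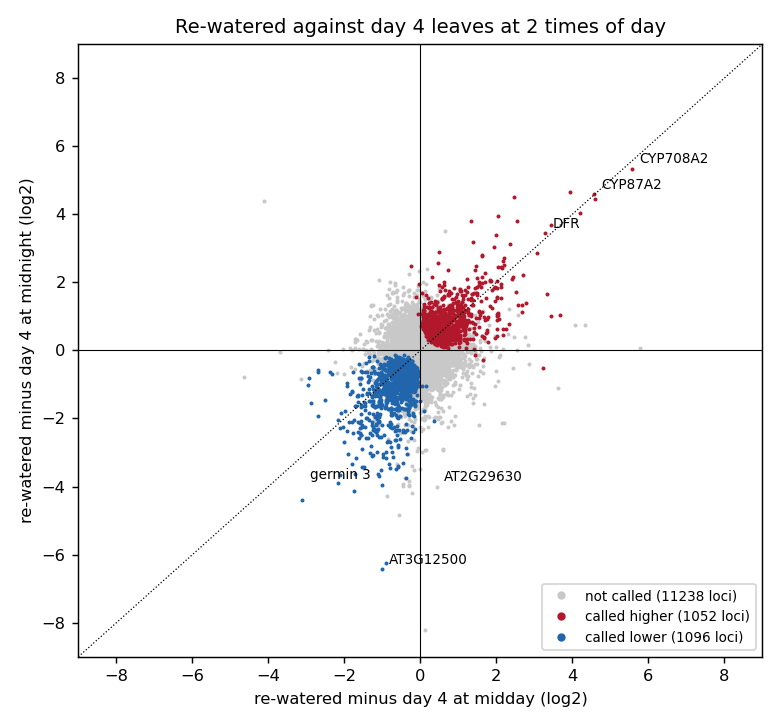
Difference between re-watered and day 4 leaves (log2) at midday on the horizontal axis and at midnight on the vertical axis, 1 dot for each of the loci tested, with loci called higher in red (1052) and lower in blue (1096). Most called loci lie in the quadrants where both times go the same way, which a call over both times favours. The lowest blue dots fell much further at midnight than at midday.

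The 12 libraries held between 4266915 and 8137123 counts, and the shallowest were those of day 4 midnight. Libraries of a group correlated with each other at r from 0.947 to 0.987 across loci. Re-watered midday replicate 3 differed from the other two of its group in that its 10 most abundant loci held 12.6% of its counts, compared with 23.5% and 20.3%. Its mean correlation with its own group was 0.959, near that of replicate 1 (0.962) and below that of replicate 2 (0.975). On principal component 2, an axis with 16.9% of the variance, re-watered midday replicates 1, 2 and 3 lay at -0.602, -19.1 and -51.3. The day 4 midday replicates lay there at 4.78, 18.8 and 17.8, so re-watered replicate 1 lay nearest to them. Without re-watered midday replicate 3, 1777 loci were called (823 higher and 954 lower), among them 775 of the loci called higher and 854 of those called lower. Midday alone then gave 319 calls. Other libraries moved the counts further than this one. The counts of many gene groups are therefore also given without the libraries that moved them by over 1.5 times. The leaf label fits the markers: the light-harvesting protein LHCA2 stood at 7185, 6313 and 6748 CPM in the day 4 midday libraries, whereas the summed level of 7 meristem and young leaf markers did not pass 16.9 CPM in any library.

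The 3 largest rises under the rule for named loci were in cytochromes P450, haem enzymes that oxidise sterols, hormones and defence compounds. The one with the highest level was AT1G12740, annotated as CYP87A2. It stood at 22.1, 20.1 and 5.34 CPM in the day 4 midday libraries and at 99.2, 251 and 801 CPM in the re-watered midday libraries, and at 19.005, 20.7 and 18.1 and 329, 599.7 and 436 CPM at midnight. All re-watered libraries lay above all day 4 libraries at the same time, and the spread within re-watered midday was wide. The difference was 4.58 ± 0.50 (edgeR adjusted p = 0.000371). Loci of the CYP708 family, AT5G48000 (CYP708A2, which in Arabidopsis hydroxylates the triterpene thalianol) and AT1G78490 (CYP708A3), moved with it. AT5G48000 was at 0.658, 0.498 and 0 CPM and 0.627, 0.986 and 0.359 CPM in day 4 leaves at midday and midnight, and at 3.82, 9.53 and 44.1 CPM and 19.1, 34.9 and 27.7 CPM after re-watering (edgeR adjusted p = 0.000813). AT1G78490 lay between 0.178 and 1.44 CPM in day 4 libraries and between 5.39 and 38.7 CPM after re-watering. No fold is given for these CYP708 loci, since most of their day 4 libraries lay near the level of 3 counts.

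Reads of one Talinum gene can be split among near relatives in Arabidopsis, because the authors gave each read to its best protein match. In the authors' deposited table of assembled contigs, 3 contigs of these P450 families reached 3 RPM in a group. Contig Tt50281_3, matched to AT1G12740, had an authors' mean of 2 RPM at midday and 2.33 at midnight on day 4 and of 42.3 and 58 after re-watering. Tt50281_2, matched to AT1G55940 of the CYP708 family, went from 0.333 to 13.7 RPM at midday and from 0.667 to 22 at midnight in the authors' deposited table. The contig matched to AT1G78490 did not pass 1 RPM in any of the 4 groups there. Whether the CYP87 and CYP708 loci share the reads of 1 gene was not tested. Among 97 P450 loci tested, a family picked after its values were seen, 23 were higher and 6 lower, with a median of 0.23. With a library left out 16 to 26 were higher, and 2 were lower without day 4 midnight replicate 2 or 3 or re-watered midnight replicate 1 and 3 without day 4 midday replicate 3 or re-watered midnight replicate 2.

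Of 11 papain-type cysteine proteases, which break down proteins in vacuoles and outside the cell, 7 rose. AT1G47128, a granulin repeat cysteine protease, stood at 627, 265 and 322 CPM in day 4 leaves and 898, 1809 and 2679 CPM in re-watered leaves at midday. At midnight the values were 447, 421 and 369 CPM and 1816, 2990.3 and 1818 CPM. The groups did not overlap at either time, and the difference was 2.29 ± 0.27 (edgeR adjusted p = 0.000335). A second granulin protease, AT5G43060, differed by 2.4003 ± 0.31 (edgeR adjusted p = 0.000562), with means of 212 to 970.2 CPM at midday and 219.5 to 1327 at midnight. Cysteine proteinase1 (AT4G36880) rose by 1.95 ± 0.26 and the xylem cysteine peptidase XCP1 by 1.51 ± 0.19 (edgeR adjusted p = 0.000601 and 0.000371). XCP2, a close relative of XCP1 that acts in the same dying vessel cells, differed by -0.03 ± 0.13 and was not called. None of the 11, a family again picked after its values were seen, was called lower, the median was 0.78, and 6 to 8 were higher with a library left out.

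The contigs of the assembly give a view that does not rest on Arabidopsis matches of single reads. Of 11 papain-type contigs that reached 30 RPM in the authors' deposited table, 11 had a higher mean after re-watering at midday, and at midnight 7 had a higher and 4 a lower mean. These contigs were picked after their values were seen, and the share over all contigs was not computed. Some midday rises were small, such as from 103 to 110 RPM for Tt40913, and the means carry no error. The most abundant papain-type contig, Tt28569, matched to AT1G47128, went from 405 to 2676 RPM at midday and from 451 to 4206 at midnight. The next, Tt16693 (AT2G21430), went from 279.7 to 608 and from 524 to 991 RPM in the authors' deposited table. Tt15567, also matched to AT2G21430, went from 176 to 185 RPM at midday and from 287 to 126 at midnight there, and Tt52506 (AT1G20850, XCP2) from 40.3 to 42 and from 58 to 20. The most abundant contig of AT5G43060 there had 4 and 5.67 RPM at midday and 9 and 11.7 at midnight. That of XCP1 had 8.67 and 7 RPM at midday and 11 and 1.67 at midnight in the authors' deposited table, the opposite direction to the locus. How many genes the called protease loci stand for was not tested. AT2G21430 itself, given here for its contigs and outside the rule for named loci, was called with 0.63 ± 0.18 (edgeR adjusted p = 0.0287). Its call was lost in 6 of the fits that left out a library (adjusted p up to 0.0696 without re-watered midnight replicate 2).

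Flavonoid synthesis was the gene list with the largest median, 1.74 over 7 loci tested, of which 4 were higher and 0 lower. Chalcone synthase (CHS) makes the first flavonoid skeleton, flavanone 3-hydroxylase (F3H) and flavonoid 3'-hydroxylase decorate it, and dihydroflavonol 4-reductase (DFR) leads on to anthocyanins. DFR was at 4.44, 1.99 and 1.25 CPM on day 4 and 2.95, 9.53 and 61.8 CPM after re-watering at midday, and at 3.97, 9.37 and 5.203 and 47.4, 93.1 and 60.7 CPM at midnight. The groups were clear of each other at midnight and overlapped at midday, where replicate 3 was far above the other two. The difference was 3.37 ± 0.64 (edgeR adjusted p = 0.00688). CHS was at 72.3, 134 and 91.5 CPM in day 4 and 410.3, 423 and 417 CPM in re-watered leaves at midnight, again with no overlap. At midday CHS was at 19.4, 30.4 and 25.1 and 15.3, 70.7 and 314 CPM, and the groups overlapped. Over both times CHS rose by 2.25 ± 0.53 (edgeR adjusted p = 0.0175). F3H rose by 1.74 ± 0.27 (edgeR adjusted p = 0.00186), from 27.6 to 84.2 CPM at midday and 74.3 to 266 at midnight, and did not overlap at either time. Flavonoid 3'-hydroxylase (AT5G07990) rose by 2.5004 ± 0.41 (edgeR adjusted p = 0.00316), although its most abundant contig in the authors' deposited table went from 80 to 51.3 RPM at midday and from 101 to 145 at midnight. Chalcone isomerase, FLS1 and the regulator PAP1 were not called (0.26, 0.47 and -0.14). The 4 calls held without re-watered midday replicate 3, and with each other library left out.

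Transporters and sugar-adding enzymes were among the rises with the smallest adjusted p. The amino acid transporter AT5G15240 had 10.2, 13.9 and 14.2 CPM in day 4 and 29.2, 31.9 and 29.8 CPM in re-watered leaves at midday, and 14.8, 20.4 and 19.9 and 63.1, 57.7 and 58.5 CPM at midnight. Every re-watered library was above every day 4 library of its time, and the difference was 1.49 ± 0.13 (edgeR adjusted p = 4.57e-05). AT3G28960, of the same transporter family, rose by 1.05 ± 0.11 (edgeR adjusted p = 0.000172). MATE proteins export organic acids, alkaloids and flavonoid conjugates, and AT4G00350 among them rose by 1.02 ± 0.11 (edgeR adjusted p = 0.000173). The MATE loci AT5G10420 and AT5G44050 rose by 1.15 ± 0.14 and 1.07 ± 0.14 in parallel and may share reads (edgeR adjusted p = 0.000367 and 0.000438). The UDP-glycosyltransferases AT5G14860 and AT2G16890, of a family that adds sugars to hormones and secondary compounds, rose by 1.62 ± 0.18 and 1.53 ± 0.17 (edgeR adjusted p = 0.000171 and 0.000172). As families, chosen after the values were seen, amino acid transporters had 11 of 33 loci higher and 0 lower, MATE proteins 6 of 27 higher and 1 lower, and UDP-glycosyltransferases 14 of 61 higher and 1 lower. The amino acid transporters had 7 higher without day 4 midday replicate 3, re-watered midday replicate 3 or re-watered midnight replicate 2 or 3. The UDP-glycosyltransferases had 7 higher without replicate 2 of day 4 or of re-watered midnight and 9 without day 4 midnight replicate 1.

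AT4G26850 codes for a GDP-galactose guanylyltransferase, the step that commits sugar to vitamin C. It was at 179, 181 and 159 CPM on day 4 and 209, 365 and 556 CPM after re-watering at midday, and at 647, 711 and 807 and 1775, 2189 and 1747 CPM at midnight. The groups did not overlap at either time (1.27 ± 0.19, edgeR adjusted p = 0.00124). Its contig moved alike in the authors' deposited table, from 162 to 417 RPM at midday and from 976 to 2669 at midnight. Among other loci with a mean of at least 500 CPM, the glycine decarboxylase GLDP2, a core enzyme of photorespiration, rose by 0.65 ± 0.15 (edgeR adjusted p = 0.0121), and the chaperones J3 and HSP70-4 rose by 0.72 ± 0.15 and 0.55 ± 0.13 (edgeR adjusted p = 0.0079 and 0.0136). GLDP2 was the single called member among 11 of photorespiration. That list had 3 higher without re-watered midday replicate 3, and 2 higher and 1 lower without re-watered midday replicate 1. DESeq2 gave 4 higher and 1 lower.

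**Figure D2:**
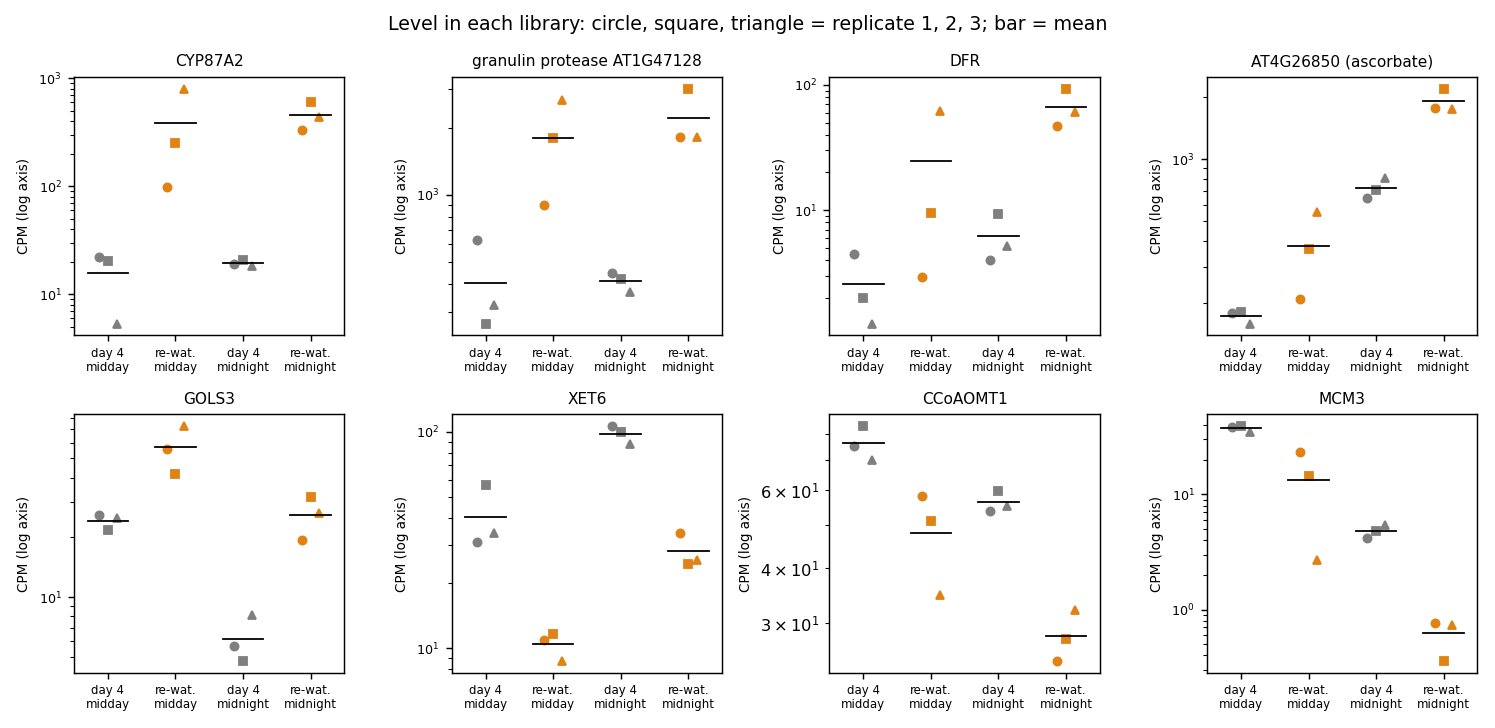
CPM of 8 loci in each library on log axes, day 4 in grey and re-watered in orange, with circle, square and triangle for replicates 1, 2 and 3 and a bar at the mean. CYP87A2, the granulin protease, DFR, AT4G26850 and GOLS3 are higher after re-watering and XET6, CCoAOMT1 and MCM3 lower, and re-watered midday replicate 3 lies at an extreme of its group in all 8 panels.

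Several drought-response genes were higher after 2 days of water than on day 4. Of 13 drought response and osmoprotection loci tested, 5 were higher and 1 lower, with a median of 0.68, and 5 or 6 were higher with each library left out. The galactinol synthase GOLS3, which starts the synthesis of the protective raffinose sugars, was at 25.8, 21.8 and 25.1 CPM on day 4 and 55.9, 41.9 and 72.5 CPM after re-watering at midday, and at 5.64, 4.77 and 8.07 and 19.3, 31.98 and 26.5 CPM at midnight. The groups were separate at both times (1.59 ± 0.20, edgeR adjusted p = 0.000383). GOLS1 rose by 0.95 ± 0.15 and the homeobox regulator ATHB7 by 1.06 ± 0.24 (edgeR adjusted p = 0.00129 and 0.0129). RD22, a classic dehydration marker, rose by 0.62 ± 0.14 (edgeR adjusted p = 0.0121), and was not called when all 30 libraries entered the fit (adjusted p = 0.217). Proline is made by P5CS1 and broken down by ProDH1, and these moved apart. P5CS1 fell at midnight from 76.4, 89.9 and 105 to 49.3, 44.3 and 50.8 CPM and overlapped at midday (-0.51 ± 0.15, edgeR adjusted p = 0.0296 over both times). ProDH1, singled out after its values were seen, went from 6.06, 6.41 and 7.54 to 25.5, 34.4 and 26.3 CPM at midnight and also overlapped at midday (1.801 ± 0.44, edgeR adjusted p = 0.0192). The P5CS1 call was lost in 5 of the fits that left out a library (adjusted p up to 0.0836 without re-watered midnight replicate 2), and the contigs matched to ProDH1 did not pass 1 RPM in the authors' deposited table.

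Abscisic acid genes moved little, in the upward direction where called. Among 13 loci of synthesis and turnover 4 were higher and 0 lower, and among 15 of signalling 3 were higher and 0 lower. The exporter ABCG25 was at 8.56, 5.48 and 4.98 CPM on day 4 and 7.12, 9.96 and 14.8 CPM after re-watering at midday, and at 8.35, 9.6996 and 10.2 and 21.6, 21.2 and 21.1 CPM at midnight. It rose by 0.99 ± 0.18 (edgeR adjusted p = 0.00383). The receptor PYL4 rose by 1.19 ± 0.24 (edgeR adjusted p = 0.0066), although its contig did not pass 1 RPM in any group of the comparison in the authors' deposited table. NCED3, the step that sets the rate of abscisic acid synthesis under drought, was not called (0.18), nor were the kinase OST1 (0.31) or the phosphatase HAI1 (0.36). The importer ABCG40, the carotenoid cleavage enzyme CCD4, the abscisic acid hydroxylase CYP707A2 and the phosphatases HAB2 and ABI1 were called with adjusted p from 0.0272 to 0.0409, and each lost its call in at least 5 of the fits that left out a library, with adjusted p up to 0.101 without day 4 midnight replicate 2 for ABI1. The loci of synthesis and turnover called higher were 1 without day 4 midnight replicate 2 or re-watered midnight replicate 2 or 3, and 2 without day 4 midday replicate 2 or 3, day 4 midnight replicate 1 or 3, re-watered midday replicate 3 or re-watered midnight replicate 1. Those of signalling were 1 without day 4 midday replicate 2, day 4 midnight replicate 2 or 3 or any re-watered midnight library.

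Of 6 vascular markers 2 were higher. The phloem sucrose loader SUC2 was at 119, 70.1 and 99.99 CPM on day 4 and 95.4, 229 and 854 CPM after re-watering at midday, and at 54.3, 52.9 and 51.7 and 100.5, 224 and 138 CPM at midnight (1.796 ± 0.43, edgeR adjusted p = 0.0185). Of its contigs in the authors' deposited table, the most abundant went from 109 to 138 RPM at midday and from 85.3 to 78.3 at midnight, and the next from 9 to 97 and from 5 to 38. SUC2 and XCP1 were the 2 called, the most abundant contig of XCP1 going the other way as given above, and SWEET11, APL, ATHB8 and XCP2 lay between -0.28 and 0.32. The summed vascular markers ranged from 253 to 358 CPM on day 4 and from 328 to 1221 after re-watering at midday, and from 263 to 280 and from 415 to 613 at midnight. These sums include SUC2, whose 854 CPM in re-watered midday replicate 3 was part of the highest sum, 1221. In whole leaves, more cells of a type and more RNA per cell cannot be told apart. Of 3 epidermis markers PDF2 was called (0.66 ± 0.19, edgeR adjusted p = 0.0297), with a call lost in 8 of the fits that left out a library (adjusted p up to 0.0722 without day 4 midnight replicate 3), and the summed level went from between 359 and 408 CPM to between 491 and 516 at midnight. GRF1 and AN3, which promote cell number in young leaves, were the called ones of 5 meristem and young leaf markers, at low levels: AN3 did not pass 3.08 CPM in any library of the comparison, and GRF1 lost its call in 3 of the fits that left out a library (adjusted p up to 0.0555 without day 4 midnight replicate 3). Of 7 guard cell markers 0 were called by edgeR, DESeq2 or limma-trend, with 2 at an unadjusted edgeR p under 0.05, and their summed level at midnight was between 86.3 and 92.1 CPM on day 4 and between 63.8 and 74.3 after re-watering, while at midday it was between 69.95 and 102 and between 73.8 and 78.2, with overlap. The part of cell type shares in the other results was not tested.

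In the hormone and surface lists a few members stood out. DWF4, a rate-limiting enzyme of brassinosteroid synthesis, rose by 1.096 ± 0.19 (edgeR adjusted p = 0.00285), and the brassinosteroid receptor BRI1 by 0.59 ± 0.10 (edgeR adjusted p = 0.00309), the 2 called of 19 auxin and brassinosteroid loci. DWF4 is itself a cytochrome P450, and the contigs matched to it did not pass 5.67 RPM in any of the 4 groups of the authors' deposited table. Of 19 wax and cutin loci 3 were higher and 3 lower. CER4, which makes the primary alcohols of leaf wax, fell by 1.58 ± 0.33 (edgeR adjusted p = 0.00892), and SHN1, a transcriptional activator of cutin and wax genes, rose by 0.62 ± 0.09 (edgeR adjusted p = 0.00121). The most abundant contig of SHN1 went against the locus in the authors' deposited table. It went from 0.667 to 0 RPM at midday and from 1.67 to 1 at midnight. The clock list had 3 of 22 higher and 0 lower: the DOF repressors CDF2 and CDF3, with 0.63 ± 0.15 and 0.595 ± 0.12 (edgeR adjusted p = 0.0119 and 0.00636), and RVE8, with 0.503 ± 0.14. The call of RVE8 (edgeR adjusted p = 0.0255) was lost in 5 of the fits that left out a library (adjusted p up to 0.0706 without day 4 midnight replicate 2). Core oscillator genes such as CCA1, TOC1 and LHY were not called (0.05, 0.30 and 0.36). The senescence regulator ORS1 rose by 1.43 ± 0.37 (edgeR adjusted p = 0.0206), 1 of 14 senescence loci higher, beside 1 lower, and its adjusted p was 0.0524 without re-watered midnight replicate 2. Without re-watered midday replicate 1, 2 senescence loci were higher and 4 lower.

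Among genes that loosen and extend the cell wall, those called were lower in re-watered leaves. Xyloglucan endotransglycosylase 6 (XET6, AT4G25810), which cuts and rejoins the chains that tether cellulose, was at 30.8, 56.5 and 34.2 CPM on day 4 and 10.9, 11.7 and 8.74 CPM after re-watering at midday, and at 106, 99.3 and 88.1 and 34.1, 24.4 and 25.6 CPM at midnight. No re-watered library reached the lowest day 4 library of its time (-1.87 ± 0.15, edgeR adjusted p = 4.57e-05). XTH16 (AT3G23730) fell by 1.96 ± 0.19 and AT1G10550 fell by 2.11 ± 0.20 (edgeR adjusted p = 7.14e-05 and 7.08e-05). The 2 contigs matched to XTH16 in the authors' deposited table went from 85 to 13.3 and from 47.3 to 23 RPM at midday and from 217 to 75.3 and from 233 to 34 at midnight. Of 15 xyloglucan endotransglucosylases tested, a family picked after its values were seen, 9 were lower and 0 higher, with a median of -1.19, and 8 or 9 were lower with each library left out. The wall loosening list had 4 of 10 lower and 0 higher, with a median of -0.73. It had 2 lower with the replicate number as a block and in 8 of the fits that left out a library (day 4 midday 2 or 3, day 4 midnight 2 or 3, re-watered midday 2 or 3 and re-watered midnight 1 or 2), and 7 without re-watered midday replicate 1. It included the expansins EXPA4 and EXPA3, which loosen walls at acid pH, with -0.74 ± 0.14 and -0.72 ± 0.14 (edgeR adjusted p = 0.00449 and 0.00564). The expansin-like AT4G38400 fell by 1.61 ± 0.15 (edgeR adjusted p = 7.14e-05).

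Part of the pectin and lignin genes fell. Pectin methylesterases and their inhibitors, which set how stiff the pectin gel is, had 10 of 21 loci lower and 1 higher, a family picked after its values were seen. AT5G09760 fell by 1.01 ± 0.11, AT3G43270 fell by 1.02 ± 0.12 and AT1G53830 fell by 1.32 ± 0.18 (edgeR adjusted p = 0.000167, 0.000249 and 0.000501). A pectin lyase-like locus, AT1G10640, was at 38.01, 32.1 and 32.3 CPM in day 4 and 2.96, 4.07 and 13.97 CPM in re-watered leaves at midnight and under 3 CPM in every midday library. It fell by 2.22 ± 0.41 (edgeR adjusted p = 0.00442), and was not called when all 30 libraries entered the fit (adjusted p = 0.0823). Of 21 secondary wall and lignin loci 7 were lower and 0 higher, with a median of -0.43, and 4 were lower without day 4 midnight replicate 2 or 3 or re-watered midnight replicate 1 or 2. CCoAOMT1, which methylates lignin precursors, was at 75.4, 83.5 and 70.1 CPM on day 4 and 58.03, 50.96 and 34.7 CPM after re-watering at midday, and at 53.7, 59.7 and 55.1 and 24.6, 27.5 and 32.02 CPM at midnight, with no overlap at either time (-0.83 ± 0.13, edgeR adjusted p = 0.00113). CCR1, the first enzyme committed to lignin, fell by 0.94 ± 0.16, and the secondary wall cellulose synthases CESA4 and CESA7 fell, with differences of -0.56 ± 0.11 and -0.46 ± 0.11 (edgeR adjusted p = 0.00234, 0.00636 and 0.0165). PAL1, C4H and HCT, which lead into lignin and other phenylpropanoids alike, were not called (0.23, 0.34 and 0.26).

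Other steep falls concerned nitrogen release, germins and vitamin E. Arginases cleave arginine to urea and ornithine. AT4G08900, which is outside the rule for named loci, was at 25.7, 34.9 and 37.2 CPM on day 4 and 15.3, 15.9 and 15.5 CPM after re-watering at midday. At midnight it was at 57.4, 59.8 and 63.7 and 13.9, 12.3 and 15.6 CPM, with no overlap at either time (-1.59 ± 0.17, edgeR adjusted p = 0.000167). The other arginase, AT4G08870, fell by 2.48 ± 0.33 (edgeR adjusted p = 0.000718). The arginase loci may share reads, and how many genes they stand for was not tested. Germin 3 (AT5G20630) and germin-like protein 1 (AT1G72610) are wall proteins of the cupin family. Germin 3 was at 2268, 3158 and 3045 CPM on day 4 and 2224, 1597 and 422 CPM after re-watering at midday, where replicate 3 was lowest, and at 927, 672 and 750.2 and 39.8, 33.1 and 76.4 CPM at midnight (-2.47 ± 0.61, edgeR adjusted p = 0.0205). AT1G72610 fell by 2.35 ± 0.53 (edgeR adjusted p = 0.0143). The call of germin 3 was lost in 4 of the fits that left out a library, with adjusted p up to 0.0583 without re-watered midnight replicate 3. Gamma-tocopherol methyltransferase (AT1G64970), the last step to vitamin E, fell by 2.19 ± 0.45 (edgeR adjusted p = 0.0093), from 149 to 74.4 CPM at midday and 119 to 10.2 at midnight. Further loci past the rule for large falls were the serine carboxypeptidase-like AT3G45010 (-2.41 ± 0.40), the Rossmann-fold locus AT2G33590 (-2.47 ± 0.33), the polyketide cyclase-like AT1G23130 (-2.54 ± 0.33) and the O-methyltransferase AT5G53810 (-1.93 ± 0.29), with edgeR adjusted p of 0.00324, 0.000896, 0.000425 and 0.00132.

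Of 25 cell cycle and DNA replication loci tested, 14 were lower and 0 higher in re-watered leaves, with a median of -0.71. The lower ones numbered 7 without re-watered midnight replicate 2, 8 without day 4 midnight replicate 2, 9 without day 4 midday replicate 2 and 10 to 16 without each other library. MCM3, a subunit of the helicase that opens replication origins, was at 38.2, 39.02 and 35.1 CPM on day 4 and 23.3, 14.3 and 2.71 CPM after re-watering at midday, and at 4.18, 4.77 and 5.38 and 0.773, 0.359 and 0.742 CPM at midnight. The groups did not overlap at either time, and the re-watered midday libraries differed widely among themselves (-1.85 ± 0.42, edgeR adjusted p = 0.0128). The catalytic DNA polymerase subunit ICU2, the mitotic kinase CDKB2;2 and the origin protein ORC1B fell, with differences of -1.82 ± 0.36, -1.796 ± 0.33 and -1.62 ± 0.38 (edgeR adjusted p = 0.00637, 0.00383 and 0.0134). ORC1B was a low locus, at 2.09, 4.44 and 2.87 CPM on day 4 and 0.258, 0.359 and 1.11 CPM after re-watering at midnight. The 6 subunits MCM2 to MCM7 lay between -1.85 and -1.39, whereas the mitotic cyclins CYCB1;1 and CYCB1;4 and the spindle protein MAP65-3 were not called (-0.04, -0.05 and 0.03). Of 9 core histones 2 were lower, HTR2 (-0.72 ± 0.15, edgeR adjusted p = 0.00747) and HTB2 (-0.52 ± 0.11). Ribosomal proteins had 28 of 258 lower and 3 higher, with a median of -0.25, against 8.19% lower and 7.86% higher over all loci. The lower count rested on single libraries: it was 9 without re-watered midnight replicate 2 or 3, 11 without day 4 midnight replicate 1, 13 without day 4 midday replicate 2 or 3 or day 4 midnight replicate 2, and 61 without re-watered midday replicate 1, while DESeq2 gave 44 and the fit of all 30 libraries 46.

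**Figure D3:**
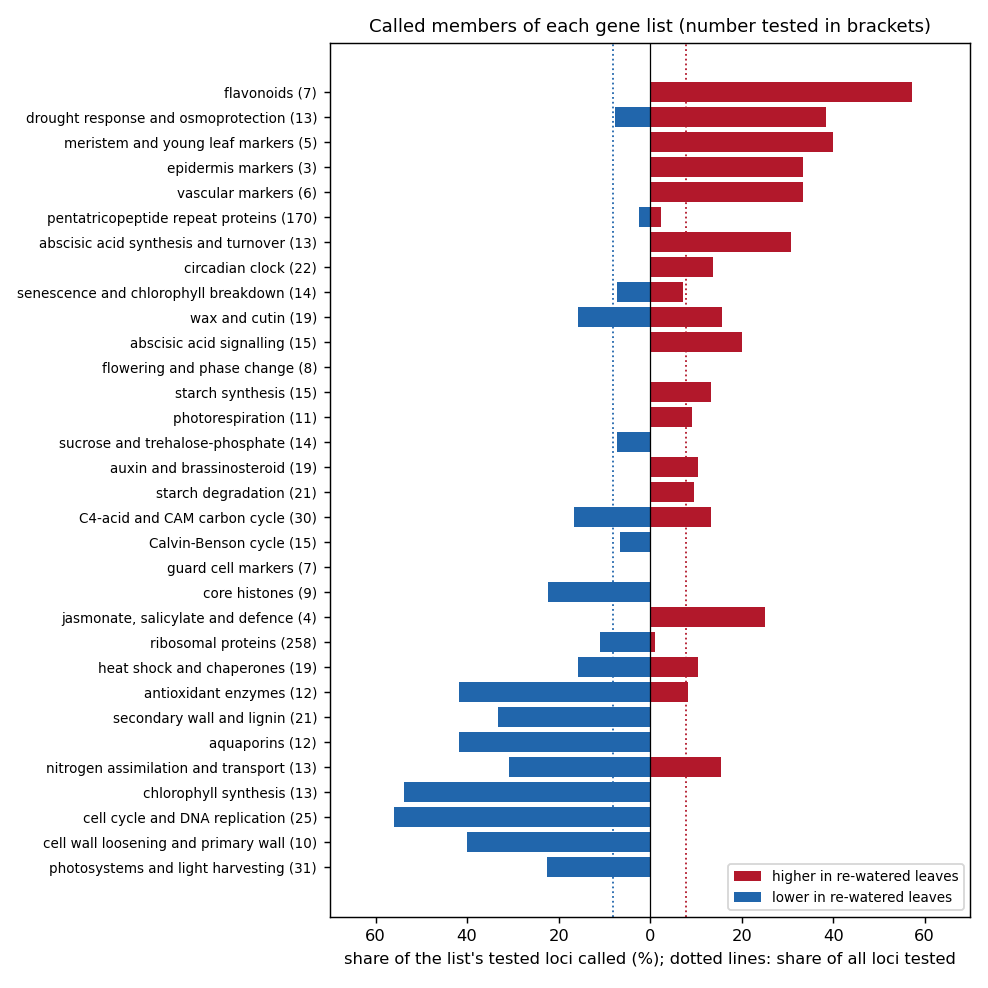
Share of the tested loci of each gene list that was called higher (red, to the right) or lower (blue, to the left) in re-watered leaves, with the number tested in brackets and the lists ordered by median difference. Dotted lines mark the shares over all loci tested, 7.86% and 8.19%. Flavonoids reach furthest to the right, and cell cycle and chlorophyll synthesis furthest to the left.

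Part of chlorophyll synthesis and of the light-harvesting machinery was lower after re-watering. Of 13 chlorophyll synthesis loci 7 were lower and 0 higher, with a median of -0.64. The lower ones numbered 2 without re-watered midnight replicate 2 or 3, 3 without day 4 midnight replicate 1 or 3 or re-watered midnight replicate 1, and 4 without day 4 midday replicate 2. CHLH, the large subunit of the chelatase that puts magnesium into the ring, was at 3363, 4265 and 4328 CPM on day 4 and 3275, 2626 and 1548 CPM after re-watering at midday, and at 423, 311 and 509 and 211, 215 and 257 CPM at midnight (-0.77 ± 0.18, edgeR adjusted p = 0.0144). The re-watered libraries lay below those of day 4 at both times. CAO, which makes chlorophyll b, and the light-driven reductase PORC fell, with differences of -1.06 ± 0.27 and -1.21 ± 0.31 (edgeR adjusted p = 0.0183 and 0.0204). Of 31 photosystem and light-harvesting loci 7 were lower and 0 higher, with a median of -0.77, and this count moved with single libraries and tools. It was 0 without re-watered midnight replicate 2 or 3, 1 without any other midnight library, 4 without re-watered midday replicate 3 or with the replicate number as a block, 11 without re-watered midday replicate 2 and 25 without re-watered midday replicate 1. DESeq2 gave 21 lower, limma-trend 17 and the fit of all 30 libraries 23. LHCA2 of photosystem I fell by 1.29 ± 0.39 (edgeR adjusted p = 0.0402) over both times, from 6749 to 5944 CPM at midday and 248 to 46.1 at midnight. Its call was lost without re-watered midday replicate 3 (adjusted p = 0.0879) and in 6 other fits that left out a library, and those of PSAH2 (-0.98 ± 0.28), PSBW (-0.798 ± 0.21) and PORC in 6, 2 and 2 such fits (adjusted p up to 0.0827 without re-watered midnight replicate 2 for PSAH2, 0.0641 without re-watered midnight replicate 2 for PSBW and 0.0566 without re-watered midnight replicate 2 for PORC).

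Of 12 antioxidant loci 5 were lower and 1 higher, with a median of -0.40, and the lower ones numbered 3 without re-watered midnight replicate 2 and 8 without re-watered midday replicate 1. The stromal and thylakoid ascorbate peroxidases sAPX and tAPX, which remove peroxide beside the photosystems, fell, with differences of -0.96 ± 0.23 and -1.32 ± 0.30 (edgeR adjusted p = 0.0144 and 0.0121). sAPX was at 65.4, 78.7 and 99.4 CPM on day 4 and 31.04, 26.8 and 28.7 CPM after re-watering at midnight, with no overlap, and overlapped at midday. Its contig went from 65.3 to 69 RPM at midday and from 37.7 to 22 at midnight in the authors' deposited table. That contig, Tt31974_4, and the most abundant contig of tAPX, Tt31974_2, have the same stem in their names. The loci sAPX and tAPX may share reads, and how many genes they stand for was not tested. The mitochondrial superoxide dismutase MSD1 fell by 0.72 ± 0.12 (edgeR adjusted p = 0.00195), and the chloroplast one, CSD2, fell by 1.01 ± 0.26 (edgeR adjusted p = 0.0204, and 0.0557 without re-watered midnight replicate 2). CAT3, the single antioxidant locus called higher (0.51 ± 0.17, edgeR adjusted p = 0.0476), lost its call in 11 of the fits that left out a library (adjusted p up to 0.102 without day 4 midnight replicate 2) and in the fit with the replicate number as a block (adjusted p = 0.0632).

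Of 12 aquaporins, the channels through which water crosses membranes, 5 were lower and 0 higher over both times, with a median of -0.45. The lower ones numbered 2 without day 4 midnight replicate 2 or re-watered midnight replicate 2 or 3, and 3 without day 4 midday replicate 2 or 3, day 4 midnight replicate 1 or re-watered midnight replicate 1. At midday alone SIP1;1, a small intracellular channel, was called higher (0.63 ± 0.15, edgeR adjusted p = 0.0268), against 3.88% of all loci called higher there. The plasma membrane channel PIP2;8 was at 245, 301 and 289 CPM on day 4 and 219, 152 and 109 CPM after re-watering at midday, and at 336, 306 and 253 and 203, 172 and 198 CPM at midnight (-0.72 ± 0.15, edgeR adjusted p = 0.00776). The vacuolar channels TIP1;2 and TIP2;2 fell, with differences of -0.93 ± 0.23 and -1.67 ± 0.46 (edgeR adjusted p = 0.0178 and 0.0306), the second with a call lost in 8 of the fits that left out a library (adjusted p up to 0.0692 without re-watered midnight replicate 2).

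Nitrogen genes were split. Of 13 tested 4 were lower and 2 higher, with a median of -0.48. The lower ones numbered 1 without day 4 midday replicate 2 or any midnight library and 2 without day 4 midday replicate 3 or re-watered midday replicate 2, and the higher ones 0 without any day 4 midnight library or re-watered midnight replicate 1 or 2 and 1 without re-watered midday replicate 3 or re-watered midnight replicate 3. LBD39, a nitrate-induced repressor of anthocyanin genes in Arabidopsis, was at 15.6, 15.9 and 14.9 CPM on day 4 and 13.7, 8.23 and 2.46 CPM after re-watering at midday, and at 12.7, 16.9 and 22.2 and 1.93, 1.92 and 1.98 CPM at midnight (-1.91 ± 0.42, edgeR adjusted p = 0.0123). Its relative LBD38 fell by 1.54 ± 0.45 (edgeR adjusted p = 0.0375). Nitrite reductase NIR1 was called lower (-0.72 ± 0.22), and the glutamate synthase GLU1 and the root-to-shoot nitrate transporter NRT1.5 were called higher (0.72 ± 0.21 and 1.29 ± 0.34). For these the edgeR adjusted p was 0.0375, 0.0338 and 0.0259, and LBD38 and these 3 lost theirs in 6 to 10 of the fits that left out a library (adjusted p up to 0.0957 without day 4 midnight replicate 2 for GLU1). The nitrate reductases NIA1 and NIA2 had large differences, -2.18 and -2.07, that were not called.

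Enzymes of the CAM cycle were called on both sides. Of 30 tested 4 were higher and 5 lower, with a median of -0.10. The lower ones numbered 3 with the replicate number as a block and without day 4 midday replicate 2 or 3, day 4 midnight replicate 2 or 3 or any re-watered midnight library, 8 by DESeq2, by limma-trend and in the fit of all 30 libraries, and 9 without re-watered midday replicate 1. NADP-ME1, a malic enzyme that releases carbon dioxide from malate, was at 128, 121 and 121 CPM on day 4 and 179, 214 and 317 CPM after re-watering at midday, and at 128, 145 and 145 and 201, 210.2 and 202 CPM at midnight, with no overlap at either time (0.75 ± 0.13, edgeR adjusted p = 0.0032). NADP-ME2 and NADP-ME4 rose by 0.64 ± 0.12 and 0.54 ± 0.12 (edgeR adjusted p = 0.00463 and 0.0109), and the malic enzymes may share reads. In the authors' deposited table the top contig of NADP-ME1 went from 1.67 to 21.3 RPM at midday and from 3.67 to 12 at midnight. The contig of NADP-ME2 did not pass 2.33 RPM, and the top contig of NADP-ME4 went from 111 to 149 and from 271 to 418. How many genes the called malic enzyme loci stand for was not tested. PPDK, which recovers phosphoenolpyruvate from the pyruvate that malic enzymes form, was at 1089.8, 1159.7 and 1338 CPM on day 4 and 2056, 2057 and 2033 CPM after re-watering at midnight and overlapped at midday. It was called by a narrow margin (0.62 ± 0.20, edgeR adjusted p = 0.049), not with the replicate number as a block (adjusted p = 0.0731) nor in 10 of the fits that left out a library (adjusted p up to 0.112 without day 4 midnight replicate 1). PPC1 and PPC2, the phosphoenolpyruvate carboxylases, and their kinase PPCK1 were not called (-0.04, -0.16 and -0.15). The bacterial-type carboxylase PPC4 fell by 0.86 ± 0.21 (edgeR adjusted p = 0.0171), with contigs that did not pass 2.67 RPM in any group of the comparison in the authors' deposited table. The plastid carriers for phosphoenolpyruvate and pyruvate, PPT2 and BASS2, fell, with differences of -0.72 ± 0.14 and -0.71 ± 0.15 (edgeR adjusted p = 0.00431 and 0.00824). The cytosolic malate dehydrogenase cMDH1 fell by 0.45 ± 0.14 (edgeR adjusted p = 0.0385) and lost its call in 9 of the fits that left out a library (adjusted p up to 0.0936 without re-watered midnight replicate 2).

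Starch genes gave few calls over both times. Of 21 in degradation 2 were higher and 0 lower, and of 15 in synthesis 2 were higher and 0 lower. With a library left out 0 to 2 and 0 to 4 were higher, the 4 without re-watered midday replicate 1. The amylases BAM1 and AMY2 rose by 0.502 ± 0.15 and 1.28 ± 0.39 (edgeR adjusted p = 0.0387 and 0.0413), and both calls were lost without re-watered midday replicate 3 (adjusted p = 0.0656 and 0.0936). The granule-bound starch synthase GBSS1 and the debranching enzyme ISA2 rose by 0.48 ± 0.13 and 0.35 ± 0.10 (edgeR adjusted p = 0.0229 and 0.0342). Their calls were lost in 5 and 7 of the fits that left out a library (adjusted p up to 0.0626 without day 4 midnight replicate 1 and 0.0914 without day 4 midnight replicate 2).

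Some of these differences depended on the time of day. The test of the midnight difference minus the midday difference called 1332 loci, 9.95% of those tested, 608 with a positive (4.54%) and 724 with a negative value (5.41%). Among the loci called in the additive model, 52 of those higher and 113 of those lower were also called here. In starch degradation 8 of 21 loci had a called negative value and in photosystems and light harvesting 10 of 31, with 0 positive in either. MEX1, which exports the maltose released from starch, was at 133, 127 and 156 CPM on day 4 and 171, 208 and 199 CPM after re-watering at midday, and at 90.01, 119.5 and 108 and 30.3, 22.4 and 27.8 CPM at midnight. Re-watered libraries were thus all above those of day 4 at midday and all below at midnight, an interaction of -2.41 ± 0.21 (edgeR adjusted p = 0.000158). DPE1, a plastid glucanotransferase of the same pathway, had 119.9, 118 and 129.5 CPM on day 4 and 41.9, 33.2 and 40.8 CPM after re-watering at midnight and overlapped at midday (-1.77 ± 0.18, edgeR adjusted p = 0.000217). AT2G29630, annotated thiaminC, a thiamine synthesis gene, went from 302, 316 and 482 to 21.6, 18.4 and 27.3 CPM at midnight, while at midday it was at 286, 147 and 189 and 194, 335 and 318 CPM (-4.43 ± 0.40, edgeR adjusted p = 0.000217).

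The basic chitinase AT3G12500, singled out after its values were seen, was at 2715, 5658 and 3453 CPM on day 4 and 60.9, 35.6 and 38.8 CPM after re-watering at midnight. At midday it was at 886, 2534 and 2218 and 756, 1097 and 960.2 CPM, with overlap. Its interaction was -5.402 ± 0.55 (edgeR adjusted p = 0.000282), and 2 of its contigs fell at midnight from 7773 to 57 and from 4580.3 to 44 RPM in the authors' deposited table. The zinc finger protein AT5G25560 and the oxygenase AT4G10490 had interactions of -1.77 ± 0.18 and -2.91 ± 0.29 (edgeR adjusted p = 0.000217 and 0.000217). In the other direction ABCG12, an exporter of surface wax, went from 67.5, 79.9 and 74.5 to 173, 186 and 178 CPM at midnight, while at midday it was lower, at 91.04, 70.6 and 89.4 against 91.7, 108 and 121 CPM on day 4 (1.67 ± 0.20, edgeR adjusted p = 0.000516). Its most abundant contig went from 81 to 104 RPM at midday, against the locus, and from 119 to 391 at midnight in the authors' deposited table. MUTS homolog 2 (AT3G18524), a DNA mismatch repair gene, fell at midday from 13.7, 11.3 and 15.3 to 8.69, 8.81 and 5.66 CPM and rose at midnight from 1.88, 2.47 and 1.97 to 6.96, 7.78 and 7.42 CPM (2.64 ± 0.31, edgeR adjusted p = 0.000516). The photolyase AT1G12370, the CRM protein AT3G01370 and the ABC transporter AT1G51460 had positive values of 1.37 ± 0.19, 2.11 ± 0.26 and 1.64 ± 0.23 (edgeR adjusted p = 0.00182, 0.000836 and 0.00182). For AT1G51460 the top contig in the authors' deposited table fell at both times, from 25 to 16 and from 19 to 12 RPM. Without re-watered midday replicate 3 the interaction called 1899 loci.

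**Figure D4:**
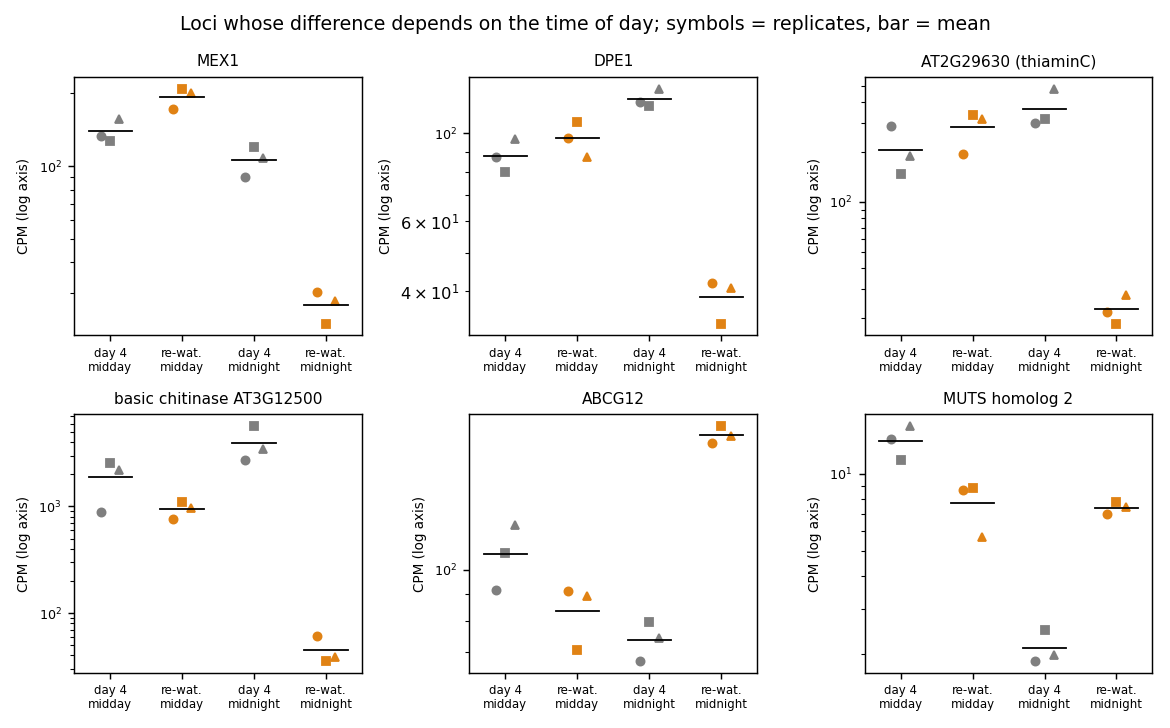
CPM of 6 loci in each library on log axes, day 4 in grey and re-watered in orange, with circle, square and triangle for replicates 1, 2 and 3 and a bar at the mean. MEX1, DPE1, AT2G29630 and the chitinase fall at midnight after re-watering, whereas ABCG12 and MUTS homolog 2 are higher at midnight.

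The called loci were also set beside the drought response itself, taken as day 12 against day 0 in an additive fit of those 12 libraries, which share none with the comparison. That fit called 22.1% of loci higher and 27.3% lower on day 12. Of the loci that were lower in re-watered than in day 4 leaves, 65.4% were lower and 3.33% higher on day 12 than on day 0, which made up 19.4% of the day 12 falls tested in both. Of those higher after re-watering, 38.3% were higher and 17.8% lower on day 12, and they made up 13.8% of the day 12 rises. The median day 12 difference was -1.04 for the loci lower after re-watering, 0.30 for those higher and -0.03 for all.

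The shape of these courses differed among members. GOLS3 had means of 22.9, 24.2, 177, 209 and 56.8 CPM at midday on days 0, 4, 9 and 12 and after re-watering, a peak in drought with a level above day 4 afterwards. NADP-ME1 followed the same order at midday, with 119, 123, 462, 634 and 237 CPM. The lignin gene CCoAOMT1 and the replication gene MCM3 dipped in drought and were below day 4 after re-watering. CCoAOMT1 had 68.02, 56.1, 2.93, 3.16 and 28.1 CPM at midnight, and MCM3 had 35.3, 37.4, 1.07, 0.269 and 13.4 CPM at midday. DFR went the other way. It had 23.7, 6.18, 2.56, 0.349 and 67.1 CPM at midnight, low in drought and highest after re-watering. CYP87A2 (AT1G12740) stood at 68.6, 19.3, 58.03, 9.702 and 455 CPM at midnight and at 5.09, 15.8, 235, 323 and 384 at midday. The granulin protease AT1G47128 was lowest on day 4 at both times, with 817 CPM on day 0 and 405 on day 4 at midday and 1116 and 412 at midnight. These courses are descriptions over 3 libraries a group.

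**Figure D5:**
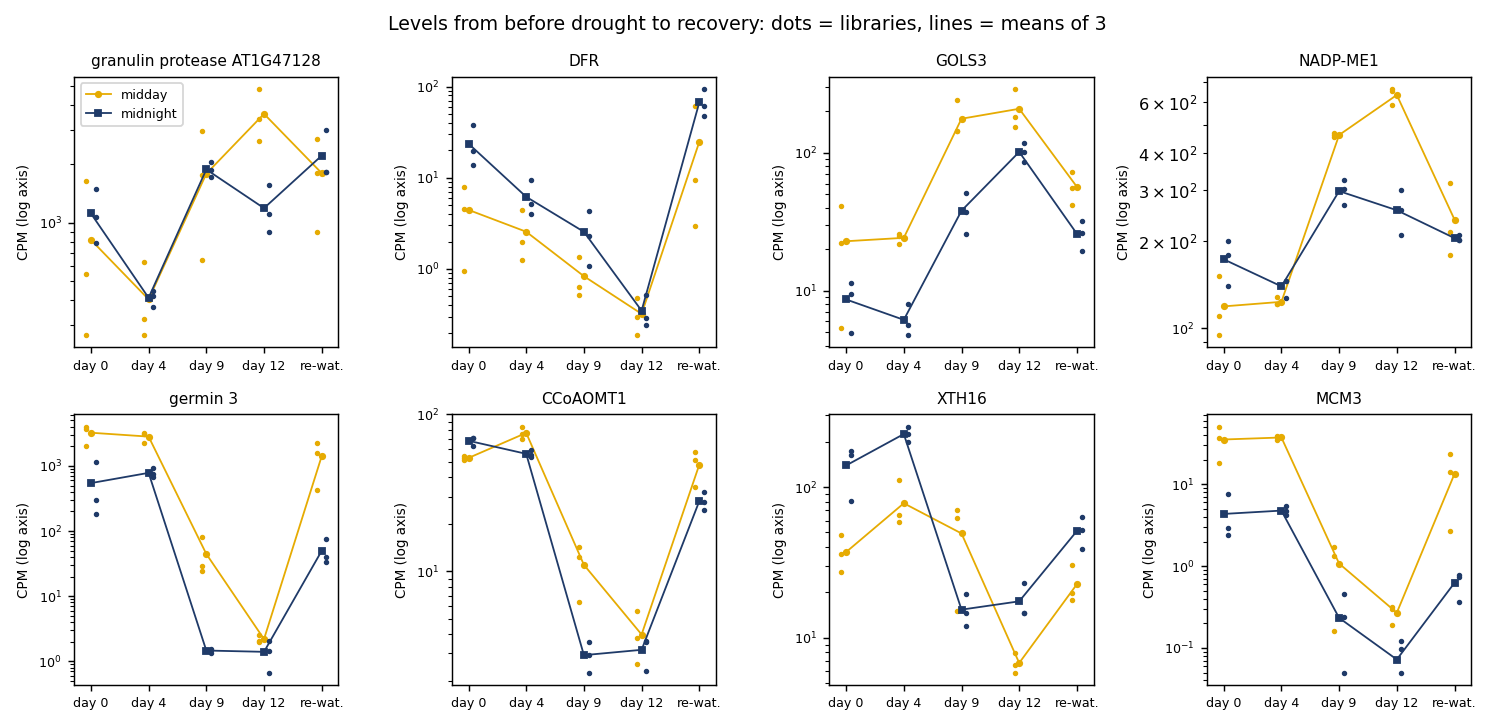
CPM of 8 loci on log axes on days 0, 4, 9 and 12 of drought and after re-watering, with dots for libraries and lines through the means of 3 at midday (yellow) and midnight (blue). GOLS3 and NADP-ME1 peak in drought and stay above day 4, DFR is lowest on day 12 and highest after re-watering at midnight, and germin 3, CCoAOMT1, XTH16 and MCM3 return only part of the way.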

How the data were processed

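Leaf polyA RNA was made into TruSeq v2 libraries and sequenced by the authors on a HiSeq 2000 in single reads of 150 bp, 12 libraries per lane, per the labels. Base calling used CASAVA 1.8.2, per the submitters' processing notes. Per the file headers, the authors mapped reads in protein space with BLAT to a reduced set of TAIR10 proteins where the best hit took the read. Raw read counts per locus, as deposited by the authors, were tested here. For assembled contigs the authors deposited mean RPM values, 1 per group. Its mapping tool is not given in the sources used here, and its means carry no error.

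Counts of the 12 libraries were fitted with edgeR 4.0.16 in R 4.3.3 (filterByExpr, TMM, robust quasi-likelihood test, time of day plus stage). Of 21869 loci, 16343 had a count and 13386 passed the filter on low counts. Adjusted p is the two-sided Benjamini-Hochberg value over all loci tested, and the standard error is the absolute log2 difference over the square root of F. A second fit with 4 groups gave midday, midnight and interaction values. Printed CPM use TMM factors over 30 libraries. The fits were also run on simulated counts with known differences. These were made without the day-night differences of the real libraries, so that run is no support for the results. Precision follows depth: 3 counts, the floor for a count of 0, were between 0.369 and 0.703 CPM, for counting error only. This floor uses library totals without TMM factors.

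Named loci were those called, with a group mean of at least 10 CPM and no overlap at either time, the 15 largest rises and falls; of those with at least 500 CPM, the 5 smallest adjusted p each way; up to 4 called members of each list each way; and 5 interaction loci each way. Not every one is reported. Further loci are marked in the text. Members, 30 lists and 2 keyword lists were chosen with earlier results of these data known, and 8 families after these values were seen. Of 591 list loci, 456 were in the table and 426 were tested.

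As alternatives, all 30 libraries or all but 1 of the 12 were fitted, replicate numbers were entered as a block, and both times were averaged in the 4-group fit. DESeq2 1.42.0 and limma-trend (limma 3.58.1, prior count 2) were run. Scaling by RLE or upper quartile, dropping the filter or asking for 5 CPM in 3 libraries, and stricter calls (adjusted p below 0.01, or a log2 size of 1 or more) were tried. Deviations of libraries with the same number were not correlated (mean r = 0.003 over 18 pairs, 4 above 0.1), so numbers were not taken as pairs. No 2 libraries were identical. The labels call the replicates biological. P-values of the 4-group fit measure the spread between them. In the additive fit, p-values and standard errors also take in how far the difference varied between midday and midnight (9 residual degrees of freedom against 8).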

Additional observations from a re-analysis of the deposited data

Results flagged for a closer look

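The difference between re-watered and day 4 leaves was itself different at midday and midnight in 1332 loci, by edgeR's test of the interaction (midnight difference minus midday difference, log2). Among the loci named in the text, negative values, a lower re-watered level at midnight relative to midday, were found for the chitinase AT3G12500 (-5.40), AT2G29630 (-4.43), germin 3 AT5G20630 (-2.93), the oxygenase AT4G10490 (-2.91), germin-like protein 1 AT1G72610 (-2.51), the tocopherol methyltransferase AT1G64970 (-2.49), the maltose exporter MEX1 (-2.41) and the light-harvesting protein LHCA2 (-2.20). Smaller negative values belonged to AT2G33590 (-1.94), the arginase AT4G08870 (-1.90), the wax enzyme CER4 (-1.80), AT5G25560 (-1.77), the glucanotransferase DPE1 (-1.77), the arginase AT4G08900 (-1.01) and the proline synthesis enzyme P5CS1 (-0.73). Positive values were found for the glutamate synthase GLU1 (1.26), the photolyase AT1G12370 (1.37), AT1G51460 (1.64), the wax exporter ABCG12 (1.67), AT3G01370 (2.11) and the mismatch repair gene AT3G18524 (2.64). For germin 3, AT1G72610, AT1G64970, LHCA2, both arginases, AT2G33590, CER4, P5CS1 and GLU1 the pooled value given in the report averages times of day that differ by these amounts.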

How the results depend on the processing

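Over 129 loci and up to 22 alternatives each, 2835 values were recomputed: 2501 kept direction and side of the threshold, 334 kept direction and lost the call, and 0 changed direction. Setting aside the stricter thresholds, 97 of the 129 loci kept their call under every alternative and 32 lost it under at least 1. RLE and upper quartile scaling, DESeq2, limma-trend, both filters, the fit of all 30 libraries and the replicate block left the totals over all loci and over all list loci within 1.5 times their values in the report. Single lists moved further. The photosystem list went from 7 lower to 21 (DESeq2), 17 (limma-trend), 23 (all 30 libraries) and 4 (replicate block), ribosomal proteins from 28 lower to 44 (DESeq2) and 46 (all 30 libraries), wall loosening from 4 lower to 2 and starch degradation from 2 higher to 0 (replicate block), and expansins from 5 lower to 10 (all 30 libraries). The replicate block gave 1773 calls (1305 for the interaction, 621 at midday, 3555 at midnight, 123 among list loci). It ended the calls of P5CS1, GLU1, ISA2, cMDH1, NIR1, BAM1, AMY2, LHCA2, PPDK, CAT3 and AT3G12500, with adjusted p from 0.0508 to 0.0731.

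The pooled count was 567 at an adjusted p under 0.01, 516 with a log2 change of at least 1 and 3249 for the mean of both times in the 4-group fit. The interaction gave 306 and 747 under these 2 thresholds, midday 103 and 323, midnight 1641 and 1072, and the 154 called list loci became 33 and 40. With single libraries left out the pooled count ranged from 1141 to 2851, the interaction from 626 to 2135, midday from 98 to 2723, midnight from 2241 to 4418 and list loci from 72 to 242. Without re-watered midnight replicate 2 the counts of the pooled test and of midnight were lowest, without re-watered midday replicate 2 that of the interaction and without day 4 midday replicate 3 that of midday. Without re-watered midday replicate 1 the pooled, interaction and midday counts were highest. The cause was not tested. Medians of the starch synthesis, sucrose, photorespiration, and auxin and brassinosteroid lists changed sign with a library left out and lay near 0. The day 4 midnight libraries are the shallowest, which limits loci of a few counts.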

Other observations

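Further groups gave values that stand beside the comparison. Pentatricopeptide repeat proteins, which process RNA in chloroplasts and mitochondria, had 4 of 170 loci higher and 4 lower over both times. With a library left out the higher ones numbered from 1 (without day 4 midnight replicate 1 or 2 or re-watered midnight replicate 2) to 11 (without re-watered midday replicate 2) and the lower ones from 1 to 6. At midnight alone 44 of the 170 were higher and 2 lower, against 13.3% higher and 13.4% lower over all loci there. At midday 0 were higher and 1 lower, against 3.88% and 2.25%. A positive interaction was found for 19 and a negative one for 1, against 4.54% and 5.41% over all loci. Their median was -0.17 at midday and 0.51 at midnight. Of 15 Calvin-Benson loci 1 was lower and 0 higher, and of 14 loci of sucrose and trehalose-phosphate metabolism 1 was lower and 0 higher. The Calvin-Benson loci called lower numbered 4 without re-watered midday replicate 1 and 0 without any day 4 or re-watered midnight library. Without re-watered midday replicate 3, 2 were lower and 1 higher. The 8 flowering and phase change loci gave 0 calls by edgeR, DESeq2 or limma-trend, with 2 at an unadjusted edgeR p under 0.05. Of 19 heat shock and chaperone loci 2 were higher and 3 lower, among the latter the chaperone ROF2, at 299, 393 and 327 CPM on day 4 and 284, 205 and 204 CPM after re-watering at midday, with no overlap at either time (-0.57 ± 0.12, edgeR adjusted p = 0.00592).

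AT5G66920, annotated SKU5 similar 17, a relative of multicopper oxidases, was at 82.3, 82.04 and 105 CPM on day 4 and 14.9, 20.8 and 34.1 CPM after re-watering at midnight, and no library overlapped at either time (-2.29 ± 0.39, edgeR adjusted p = 0.00367). The peroxidase AT2G22420 was at 2.71, 1.81 and 2.15 CPM on day 4 and 14.2, 14.9 and 15.3 CPM after re-watering at midnight (2.21 ± 0.31, edgeR adjusted p = 0.000717). AT2G07675 and AT2G07751, annotated as a ribosomal protein S12 and an NADH:ubiquinone oxidoreductase subunit, rose by 2.45 ± 0.53 and 2.36 ± 0.45 (edgeR adjusted p = 0.0119 and 0.00637). In both, 1 re-watered midnight library was far above the others, at 62.99 and 37.999 CPM. The cysteine synthesis enzyme AT2G43750 (O-acetylserine (thiol) lyase B), at 1300.1, 1087 and 1305 CPM on day 4, was at 445, 405 and 409 CPM after re-watering at midnight and overlapped at midday (-1.09 ± 0.26, edgeR adjusted p = 0.0141).

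Of the 119 loci of the additive model for which alternatives were run, 100 have a contig in the authors' deposited table and 19 have none there. The most abundant contig moved in the direction of the locus at both times in 88 of the 100. The contig means come from the same libraries in which these loci were called, so this count is no separate support. The share over all loci was not computed.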
